A study of Mus musculus with 48 samples.

Results

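The 9 genes described here belong to the stress hormone system and were followed in the amygdala of mice killed about an hour after forced swimming. They were the glucocorticoid receptor *Nr3c1* and the mineralocorticoid receptor *Nr3c2*, 4 genes known to be induced by glucocorticoids (*Fkbp5*, *Sgk1*, *Tsc22d3* and *Zbtb16*), the cortisone-reducing enzyme gene *Hsd11b1*, and the receptor and binding protein of corticotropin-releasing hormone (*Crhr1* and *Crhbp*). The members were named by symbol and looked up by Ensembl ID, and all 9 were found among the 52636 genes of the table. All 9 also passed the filter on low values in each comparison.

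The 48 libraries came from right amygdala punches of female mice aged 8 to 11 weeks, 8 mice in each of 6 groups. Wild-type (WT) mice and mice with 1 targeted *Brd1* allele (*Brd1*+/-), both given the strain C57BL/6NTac-Brd1 by the labels, had received saline vehicle, the tricyclic imipramine (IMN, 10 mg/kg) or the serotonin reuptake inhibitor fluoxetine (FLX, 5 mg/kg). The line is heterozygous for a targeted deletion of loxP-flanked exons of *Brd1*, a gene for a scaffold protein of histone acetyltransferase complexes, and the WT mice were litter-matched. Per the study's methods, each mouse was injected on 2 days and had tail suspension on day 1 and open field and forced swim tests on day 2, so all 6 groups were stressed and no unstressed level was measured.

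Corticosterone, the glucocorticoid of the mouse, is released by the adrenal gland under stress and enters the brain. It binds the mineralocorticoid receptor with high affinity and the glucocorticoid receptor with lower affinity, so that the second receptor is occupied mainly during stress. The occupied receptors move to the nucleus and bind DNA at palindromes of the half-site TGTTCT or at other factors, and *Fkbp5*, *Sgk1* and *Tsc22d3* are among the genes that respond within an hour or so. In the amygdala corticotropin-releasing hormone acts as a local transmitter through *Crhr1*, and *Crhbp* encodes a secreted protein that holds the peptide back from its receptor.

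Levels are given in TPM, a length-scaled share of a library's transcripts, so levels of different genes can be set side by side. TPM does not keep the number of reads, so precision is judged from the spread between mice alone. The targeted gene was examined first. The mean level of *Brd1* fell by 27.1% in *Brd1*+/- compared with WT mice given vehicle, by 36.6% in those given IMN and by 28.5% in those given FLX (exact permutation *p* = 0.00109, 0.000155 and 0.000777, n = 8 in each group). In limma across all genes its log2 difference was −0.45 ± 0.10 with vehicle (adjusted *p* = 0.0512) and −0.68 ± 0.12 with IMN (adjusted *p* = 0.102), neither called, and −0.49 ± 0.11 with FLX (adjusted *p* = 0.0362), which was called. The punches differed in what they held. Of the amygdala markers *Prkcd* was at 8.40 TPM or more in every library, but *Rspo2* was under 1 TPM in 16 of 48 libraries, *Cyp26b1* in 4 and *Tac2* in 3. The 6 oligodendrocyte markers summed to between 642 and 16268 TPM per library, the 6 markers of striatal projection neurons to between 101 and 7290 TPM, and the 5 choroid plexus markers to between 7.39 and 29502 TPM. WT vehicle replicate 1 stood apart from the other 7 WT vehicle libraries, with a choroid plexus sum of 29502 TPM against 8.79 to 74.9 TPM and an oligodendrocyte sum of 10381 TPM against 642 to 4769 TPM. Choroid plexus sums this high were also met elsewhere, up to 28855 TPM in *Brd1*+/- FLX and 10702 TPM in *Brd1*+/- vehicle mice. Vehicle and drug-treated mice had separate ranges of sample codes, so handling by code and drug cannot be told apart in a comparison of drug with vehicle. In bulk tissue fewer cells of a type and less RNA per cell cannot be told apart either.

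The 9 genes spanned a wide range of levels. Over the 48 libraries *Sgk1* averaged 193 ± 115 TPM and *Tsc22d3* 138 ± 51.0 TPM (SD), together the bulk of the summed level of the 9 genes. *Sgk1* exceeded *Tsc22d3* in 30 of 48 libraries, so the order of the leading pair was not fixed. Both lay well above *Fkbp5* at 42.9 ± 11.0 TPM, which *Tsc22d3* exceeded in 47 of 48 libraries. *Fkbp5* and *Nr3c1* (37.4 ± 8.21 TPM) were neighbours within their spread, with *Fkbp5* above *Nr3c1* in 29 libraries. Next came *Zbtb16* at 22.9 ± 12.4 TPM, below *Nr3c1* in 41 libraries. *Nr3c2* (19.3 ± 6.01 TPM), *Crhbp* (16.6 ± 14.1 TPM) and *Crhr1* (15.3 ± 6.73 TPM) followed, and their neighbours in this order did not differ beyond their spread. *Hsd11b1* was lowest at 10.4 ± 4.69 TPM. Variation between mice differed as much as level did. The standard deviation was 21.9% of the mean for *Nr3c1*, 25.5% for *Fkbp5* and 31.1% for *Nr3c2*, but 59.5% for *Sgk1* and 84.4% for *Crhbp*.

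**Figure D1:**
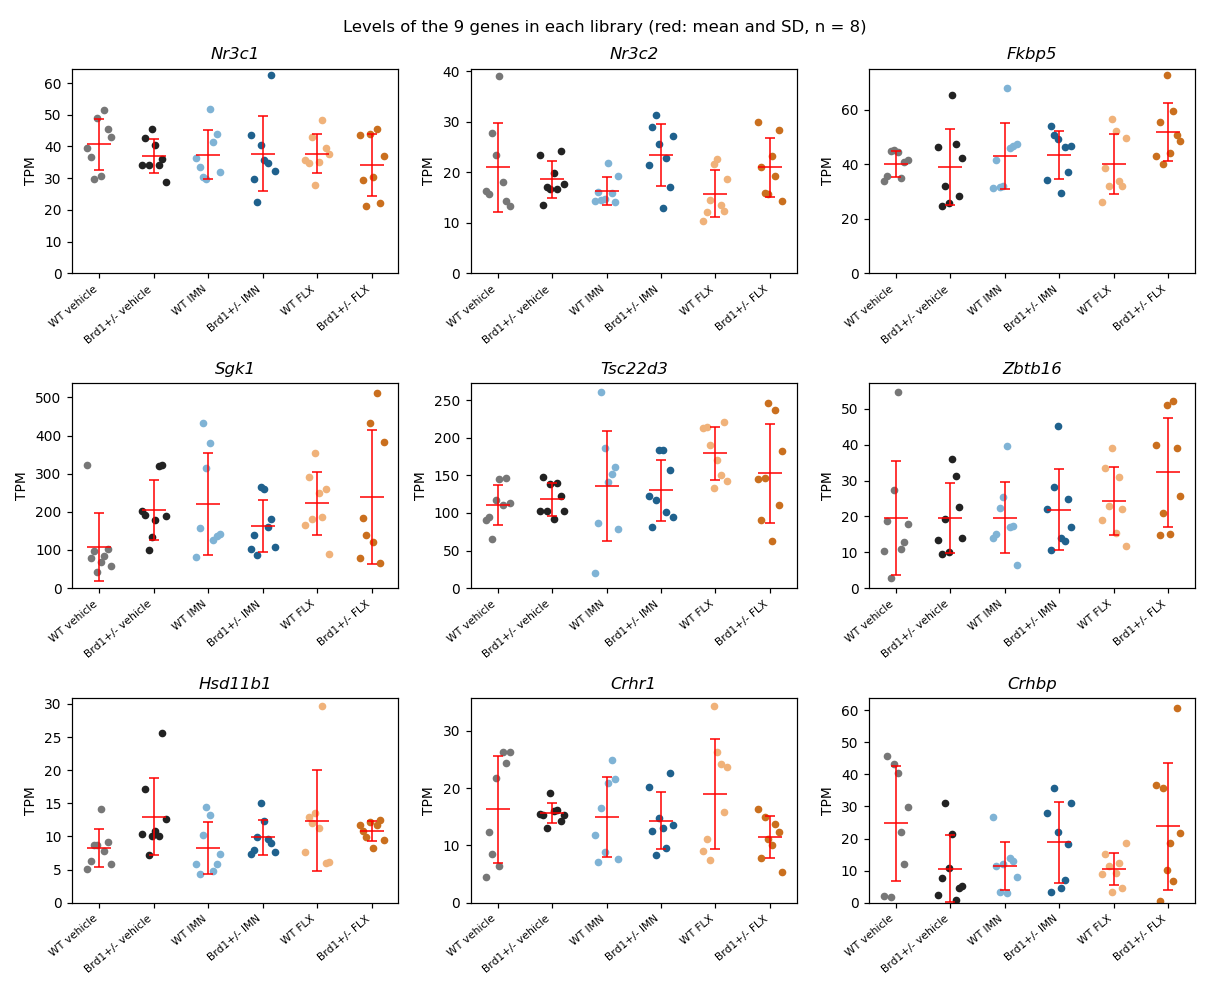
TPM of each of the 9 genes (one panel per gene, axis from 0) in the 48 libraries by group; points are single mice and red bars the mean and SD of 8 mice. The groups overlap in every panel, 7 of 8 WT vehicle libraries lie between 42.2 and 103 TPM for *Sgk1*, and *Tsc22d3* in WT FLX mice lies between 134 and 222 TPM.

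No gene of the 9 passed an adjusted *p* of 0.05 in any of 13 comparisons made with limma across all genes. Between genotypes in vehicle mice 0 of 9 were called, where 0.708% of 24279 genes were, and 2 had an unadjusted *p* under 0.05, where 8.52% of all genes did. Between genotypes with IMN 0 were called (0.017% of all genes) and 1 had an unadjusted *p* under 0.05 (3.58%). With FLX the genotype comparison gave 0 calls (1.54%) and 2 unadjusted (16.6%). In WT mice IMN against vehicle gave 0 calls (0% of all genes) and 1 unadjusted (4.58%), and FLX against vehicle gave 0 calls (0.335%) and 2 unadjusted (16.8%). In *Brd1*+/- mice IMN against vehicle gave 0 calls (0.776%) and 0 unadjusted (9.3%), and FLX against vehicle gave 0 calls (0.731%) and 3 unadjusted (6.94%). FLX against IMN gave 0 calls and 0 unadjusted in both genotypes, where 0% of all genes were called in each and 4.78% in WT and 2.99% in *Brd1*+/- mice had an unadjusted *p* under 0.05. The interaction of IMN with genotype gave 0 calls (0.536%) and 2 unadjusted (9.24%), and that of FLX with genotype gave 0 calls (1.71%) and 1 unadjusted (16.8%). Averaged over the 3 treatments, the genotype difference gave 0 calls (0.286%) and 2 unadjusted (9.12%), and the test of any difference among the 6 groups gave 0 calls (1.7%) and 2 unadjusted (11.5%). The member counts at an unadjusted *p* lay above the share of all genes in some comparisons and below it in others, and with 9 genes none is read as a result about the members.

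**Figure D2:**
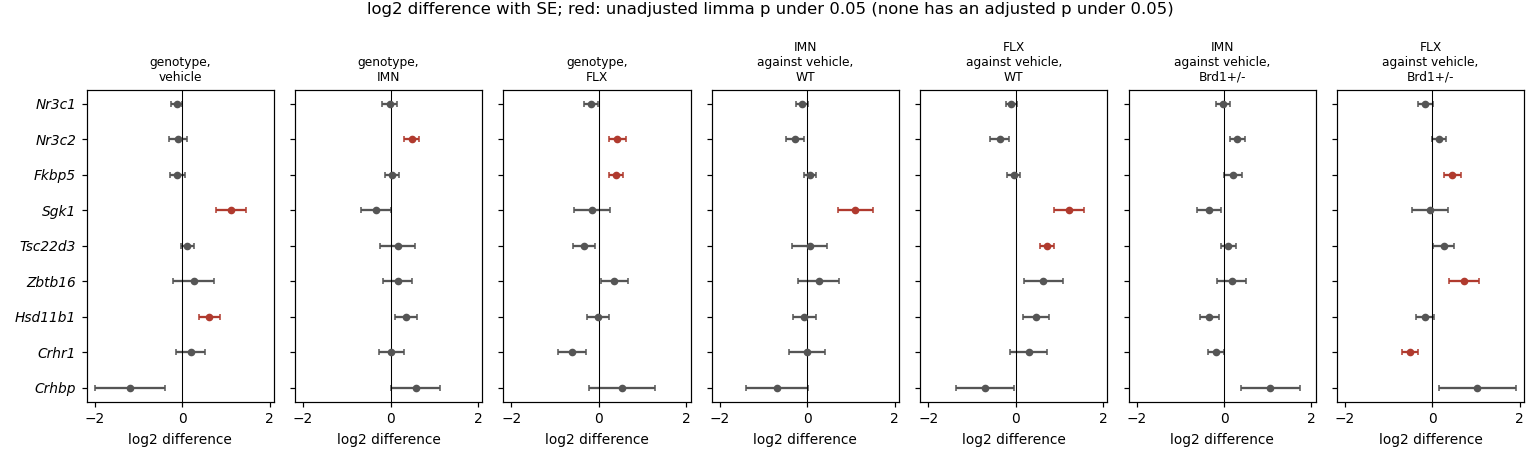
limma log2 difference with its standard error (x axis) for each of the 9 genes (y axis) in 3 genotype and 4 drug comparisons; red points have an unadjusted p under 0.05. The red points are *Sgk1* and *Hsd11b1* (genotype, vehicle), *Nr3c2* (genotype, IMN and FLX), *Fkbp5* (genotype, FLX, and FLX in *Brd1*+/- mice), *Sgk1* (both drugs in WT mice), *Tsc22d3* (FLX in WT mice), and *Zbtb16* and *Crhr1* (FLX in *Brd1*+/- mice), and none has an adjusted p under 0.05.

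The receptors were described first. *Nr3c1* (ENSMUSG00000024431, GRCm38 chromosome 18, 39410545 to 39519421, minus strand) encodes the glucocorticoid receptor. Its level was 40.7 ± 7.99 TPM in WT vehicle and 37.0 ± 5.47 TPM in *Brd1*+/- vehicle mice, 37.4 ± 7.66 and 37.7 ± 11.9 TPM with IMN, and 37.7 ± 6.12 and 34.2 ± 9.84 TPM with FLX (WT and *Brd1*+/- in each pair, SD, n = 8). The libraries ran from 29.9 to 51.4 TPM in WT vehicle and from 28.8 to 45.4 TPM in *Brd1*+/- vehicle mice, and all groups overlapped. Its log2 differences in the 9 comparisons of single groups lay between −0.18 and 0.02, and the 95% intervals of these differences between −0.58 and 0.35. Of the 9 genes it had the smallest relative spread.

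*Nr3c2* (ENSMUSG00000031618, chromosome 8, 76899442 to 77245012, plus strand) encodes the mineralocorticoid receptor. With IMN it ran from 14.2 through a median of 15.3 to 21.9 TPM in WT mice and from 12.9 through 24.2 to 31.3 TPM in *Brd1*+/- mice. Of the 8 *Brd1*+/- IMN libraries 5 lay above every WT IMN library, and 1 lay below all of them. The mean was 43.1% higher in *Brd1*+/- mice (log2 difference 0.48 ± 0.17 SE, exact permutation *p* = 0.0166, limma adjusted *p* = 1). With FLX the libraries ran from 10.3 through 14.1 to 22.6 TPM in WT and from 14.4 through 20.2 to 29.9 TPM in *Brd1*+/- mice, a log2 difference of 0.42 ± 0.19 (exact permutation *p* = 0.0594, limma adjusted *p* = 0.286). With vehicle the difference was −0.10 ± 0.20, and WT vehicle mice held the highest library of all, at 39.1 TPM. The genotype difference averaged over treatments was 0.27 ± 0.11 (limma unadjusted *p* = 0.0209, adjusted *p* = 0.439), and the interaction of IMN with genotype was 0.58 ± 0.27 (unadjusted *p* = 0.0376, adjusted *p* = 0.507). None of these differences passed the threshold after adjustment over all genes tested.

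The receptor's partners were taken next. A list of 12 chaperones and coregulators, among them the heat shock proteins that hold the unliganded receptor and the coactivators and corepressors it recruits, had 0 of 12 genes called in each of the 13 comparisons. Its median log2 difference lay between −0.09, for genotype with IMN where the median of all genes was 0.01, and 0.07, for FLX against vehicle in WT mice where it was 0.05. At an unadjusted *p* under 0.05 there were 3 of 12, all lower, for genotype with FLX (16.6% of all genes), and 2 of 12, both higher, for FLX against vehicle in WT mice (16.8%). There were also 2 of 12, both lower, for FLX by genotype (16.8%) and for the genotype mean over treatments (9.12%), and 0 of 12 in each of the other 9 comparisons.

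*Fkbp5* (ENSMUSG00000024222, chromosome 17, 28399094 to 28517527, minus strand) encodes a co-chaperone that lowers the receptor's affinity for hormone and is itself induced by the receptor. In WT vehicle mice it was the tightest of the induced genes, from 33.9 through 41.1 to 45.3 TPM, while *Brd1*+/- vehicle mice ran from 24.8 through 37.2 to 65.5 TPM. With IMN the medians were 43.7 TPM in WT and 46.5 TPM in *Brd1*+/- mice. With FLX the WT libraries ran from 26.02 through 36.4 to 56.4 TPM and the *Brd1*+/- libraries from 40.1 through 49.7 to 72.7 TPM. The *Brd1*+/- FLX group thus had the highest mean, 51.8 ± 10.6 TPM, but overlapped every other group. Its log2 difference was 0.39 ± 0.16 from WT FLX mice (exact permutation *p* = 0.0401, limma adjusted *p* = 0.235) and 0.46 ± 0.19 from *Brd1*+/- vehicle mice (exact permutation *p* = 0.0413, limma adjusted *p* = 0.621). FLX against vehicle in WT mice gave −0.04 ± 0.15, and the interaction of FLX with genotype was 0.50 ± 0.25 (limma unadjusted *p* = 0.0515, adjusted *p* = 0.301). These comparisons share the *Brd1*+/- FLX libraries.

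*Sgk1* (ENSMUSG00000019970, chromosome 10, 21882184 to 21999903, plus strand) encodes a serum- and glucocorticoid-regulated kinase that acts on ion channels and transporters, and it is transcribed in neurons and, strongly, in oligodendrocytes. One of its 6 start sites listed by RefSeq has the receptor's palindrome just upstream, and the sequence is shown because it is the only window found for the 9 genes that holds the full motif. The 250 bases before that start (GRCm38.p6, chr10:21993640-21993889, plus strand) are given 5′ to 3′, with the match to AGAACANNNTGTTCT in capitals, at 189 to 175 bases before the start:
Sgk1: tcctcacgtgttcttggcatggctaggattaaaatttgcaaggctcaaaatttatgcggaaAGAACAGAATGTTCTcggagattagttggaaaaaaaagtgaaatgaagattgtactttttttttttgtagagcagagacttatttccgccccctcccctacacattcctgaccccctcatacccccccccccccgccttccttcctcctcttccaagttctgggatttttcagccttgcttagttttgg

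The motif is its own reverse complement, so 1 search covers both strands. It was found in 3 of 32851 promoter windows (0.00913%) of 250 bases before to 50 bases after a listed start, and in 1 of the 14 windows found for 7 of the 9 genes. Its half-site, TGTTCT or AGAACA, was in 19% of all windows and in 4 of those 14, which were 3 windows of *Sgk1* and 1 of *Tsc22d3*. In a list of 21 other glucocorticoid-induced genes, 19 had windows, and 2 of their 23 windows held the half-site. A match is a description of letters, TPM per gene does not show which start was used, and receptors also bind far from promoters.

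Of the 9 genes *Sgk1* had the largest *F* for any difference among the 6 groups, 2.75 (limma unadjusted *p* = 0.0298, adjusted *p* = 0.357). WT vehicle libraries were at 42.2, 58.9, 69.5, 77.8, 85.4, 98.3, 103 and 323 TPM, and the one at 323 TPM was replicate 1, the library with the high choroid plexus and oligodendrocyte sums. *Brd1*+/- vehicle libraries ran from 100 through 190 to 322 TPM, WT IMN libraries from 81.05 through 150 to 433 TPM and WT FLX libraries from 89.8 through 218 to 354 TPM. Thus 7 of 8 WT vehicle libraries were low, and the groups overlapped through replicate 1 and the lower drug libraries. The vehicle groups also overlapped through WT replicate 7 at 103 TPM, above *Brd1*+/- replicate 3 at 100 TPM. The mean was 90.9% higher in *Brd1*+/- than in WT vehicle mice (log2 difference 1.11 ± 0.34, exact permutation *p* = 0.0107, limma adjusted *p* = 0.253). In WT mice it was 106% higher with IMN (1.09 ± 0.40, exact permutation *p* = 0.0274, limma adjusted *p* = 0.970) and 107% higher with FLX (1.22 ± 0.34, exact permutation *p* = 0.00793, limma adjusted *p* = 0.0998). In *Brd1*+/- mice the differences from vehicle were −0.35 ± 0.27 with IMN and −0.05 ± 0.41 with FLX, with medians of 150 and 160 TPM against 190 TPM. All 3 of the larger differences share the WT vehicle libraries. The interaction with genotype was −1.44 ± 0.50 for IMN (limma unadjusted *p* = 0.0072, adjusted *p* = 0.338) and −1.28 ± 0.56 for FLX (unadjusted *p* = 0.0296, adjusted *p* = 0.238).

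Single libraries decided whether *Sgk1* was called. Without WT vehicle replicate 1 its difference between genotypes in vehicle mice was 1.38 ± 0.25 (limma adjusted *p* = 0.00998) and between FLX and vehicle in WT mice 1.49 ± 0.26 (adjusted *p* = 0.0142), both past the threshold, while IMN against vehicle in WT mice was 1.36 ± 0.34 (adjusted *p* = 0.725). Leaving out WT FLX replicate 8 also carried FLX against vehicle past it (1.40 ± 0.33, adjusted *p* = 0.0452). Without WT vehicle replicate 1 the count of calls over all genes rose too, from 172 to 349 for genotype with vehicle. For FLX against vehicle in WT mice that count rose from 79 to 956, so the gain was not particular to *Sgk1*.

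Oligodendrocyte markers moved with *Sgk1* across mice, and their group differences were set beside its own. Between genotypes in vehicle mice all 6 markers were higher in *Brd1*+/- mice with an unadjusted *p* under 0.05 and 0 were called, and their median log2 difference was 1.51 beside 1.11 for *Sgk1*. For FLX against vehicle in WT mice the median was 1.21, again 6 of 6 at an unadjusted *p* under 0.05, beside 1.22 for *Sgk1*, and for IMN it was 0.90 with 0 of 6, beside 1.09. In *Brd1*+/- mice the values lay further apart. The markers had medians of −1.03 with IMN, 6 of 6 lower at an unadjusted *p* under 0.05, beside −0.35 for *Sgk1*. With FLX their median was −0.82, 0 of 6, beside −0.05 for *Sgk1*. Their summed level ran from 642 to 10381 TPM in WT vehicle, 2195 to 15522 TPM in *Brd1*+/- vehicle, 1284 to 10379 TPM in WT IMN, 1097 to 6458 TPM in *Brd1*+/- IMN, 1839 to 7968 TPM in WT FLX and 853 to 16268 TPM in *Brd1*+/- FLX libraries, and no marker was at 0 anywhere. Across the 48 libraries, with group means removed, *Sgk1* and the mean of the markers had a Pearson *r* of 0.94 and a Spearman rho of 0.90 (permutation *p* = 1e-05 for each, the smallest that 100000 resamples can give, adjusted *p* = 0.00027 and 0.000405 over 81 pairs). Without the 2 farthest libraries *r* was 0.93, and it was 0.91 in the 16 vehicle and 0.96 in the 32 drug-treated libraries.

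With the marker mean as a covariate, an alternative added after the data had been seen, the genotype difference of *Sgk1* in vehicle mice was 0.23 ± 0.18 in place of 1.11. FLX against vehicle in WT mice was then 0.41 ± 0.18, IMN against vehicle in WT mice 0.49 ± 0.15, and FLX against vehicle in *Brd1*+/- mice 0.49 ± 0.13 in place of −0.05. IMN against vehicle in *Brd1*+/- mice was 0.27 ± 0.14 in place of −0.35. In that fit the 4 drug differences were all positive, the interactions were −0.19 ± 0.21 for IMN and 0.07 ± 0.22 for FLX, and none of these 6 had an adjusted *p* under 0.05. The test of any difference among the 6 groups then called *Sgk1* (limma *F* = 6.79, adjusted *p* = 0.00868). It also called 5 of the 21 other glucocorticoid-induced genes described below, where 2 were called without the covariate. Over all genes this test called 476 as reported and 68 to 573 under the alternative settings, the covariate among them.

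**Figure D3:**
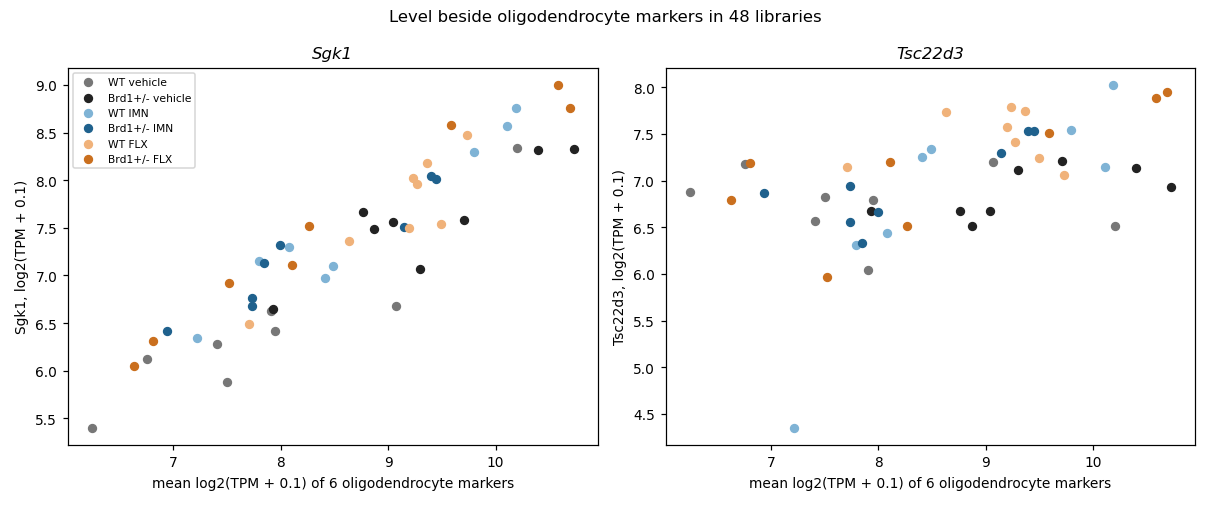
Level of *Sgk1* (left) and *Tsc22d3* (right), as log2(TPM + 0.1), against the mean log2(TPM + 0.1) of 6 oligodendrocyte markers in the 48 libraries, coloured by group. *Sgk1* follows the markers closely in every group (r = 0.94 with group means removed), *Tsc22d3* more loosely (r = 0.54). For *Tsc22d3* r was 0.09 in the 16 vehicle and 0.67 in the 32 drug-treated libraries.

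*Tsc22d3* (ENSMUSG00000031431, chromosome X, 140539528 to 140600659, minus strand) encodes the glucocorticoid-induced leucine zipper protein. It came closest to the threshold. WT vehicle libraries ran from 65.8 through 112 to 146 TPM and WT FLX libraries from 134 through 181 to 222 TPM. Of the 8 WT FLX libraries 6 lay above every WT vehicle library and all 8 above the WT vehicle median. The mean was 62.6% higher with FLX (log2 difference 0.72 ± 0.16, 95% interval 0.38 to 1.05, exact permutation *p* = 0.00109, limma adjusted *p* = 0.0573). It was called when genes were required to reach 1 TPM (adjusted *p* = 0.0499), under quantile normalization (0.0456), and without WT vehicle replicate 1 (0.0361), WT vehicle replicate 7 (0.0250) or WT FLX replicate 8 (0.0348). It was not called in the other 9 settings, with an adjusted *p* of 0.136 under the replicate block, 0.257 in 1 fit of all libraries, 0.210 with the oligodendrocyte covariate and 0.967 with the sample code term, nor without any other library, with an adjusted *p* up to 0.131. In this comparison the code term left only the lower code ranges compared, 3 WT FLX with 3 WT vehicle mice. Its value is therefore not that of 8 mice per group. The log2 difference lay between 0.66 and 0.77 over the settings and between 0.62 and 0.78 with a library left out. Over all genes 956 were called without WT vehicle replicate 1, against 79 with all libraries. In *Brd1*+/- mice FLX against vehicle gave 0.26 ± 0.24, with libraries from 62.6 through 146 to 247 TPM, and the interaction was −0.46 ± 0.30 (unadjusted *p* = 0.134), so that a difference in the FLX effect between genotypes was not shown. WT IMN libraries had the widest range, 20.3 to 261 TPM, and differed from vehicle by 0.05 ± 0.39. Astrocyte markers moved the same way with FLX in WT mice, 6 of 6 higher with a median of 0.33, 2 of them at an unadjusted *p* under 0.05 and 0 called, and their summed level was 1273 to 1829 TPM with FLX and 853 to 1433 TPM with vehicle. None of them was at 0 in a library, and their part in the *Tsc22d3* difference was not tested.

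*Zbtb16* (ENSMUSG00000066687, chromosome 9, 48654297 to 48836222, minus strand) encodes a zinc finger transcription factor that glucocorticoids induce in many cells. In *Brd1*+/- mice it ran from 9.46 through 16.7 to 36.1 TPM with vehicle and from 14.7 through 32.4 to 52.1 TPM with FLX, and 4 of 8 FLX libraries lay above every vehicle library. The log2 difference was 0.72 ± 0.34 (exact permutation *p* = 0.0687, limma adjusted *p* = 0.708). In WT mice FLX against vehicle gave 0.63 ± 0.44, with vehicle libraries from 2.83 to 54.6 TPM. The interaction was 0.09 ± 0.58, with a 95% interval from −1.09 to 1.27.

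The list of 21 other glucocorticoid-induced genes was examined for the same pattern. In WT mice FLX against vehicle had 4 of 20 genes tested called, all higher, and 10 higher and 1 lower at an unadjusted *p* under 0.05 (0.335% and 16.8% of all genes). The median log2 difference of the list was 0.53, where that of all genes was 0.05. The list was chosen with earlier results of these data known, so these shares and medians describe it and do not test it. The 4 were *Ddit4*, an inhibitor of mTOR signalling, *Cdkn1a*, an inhibitor of the cell cycle, *Plin4*, a lipid droplet protein, and *Gjb6*, an astrocyte gap junction protein. *Ddit4* ran from 52.6 through 57.2 to 63.3 TPM with vehicle and from 65.6 through 91.4 to 128 TPM with FLX. It rose with FLX, with a log2 difference of 0.69 ± 0.12 (limma adjusted *p* = 0.0251). *Cdkn1a* ran from 20.9 through 26.97 to 30.6 TPM with vehicle and from 29.6 through 42.4 to 62.8 TPM with FLX, and rose by 0.67 ± 0.13 (adjusted *p* = 0.0422). *Plin4* had 1.81 through 3.44 to 13.1 TPM with vehicle, 13.1 TPM being replicate 1, and 6.77 through 22.1 to 31.5 TPM with FLX, a rise of 2.22 ± 0.41 (adjusted *p* = 0.0311). *Gjb6* had 36.1 through 62.5 to 104 TPM with vehicle and 74.8 through 135 to 146 TPM with FLX, a rise of 1.03 ± 0.21 (adjusted *p* = 0.0498). The counts depended on single libraries and settings. They lay between 0 and 9 of 20 when single libraries were left out, with 9 without WT vehicle replicate 1, and were 0 under the replicate block, in 1 fit of all libraries, with the sample code term and with the oligodendrocyte covariate. Without WT vehicle replicate 1 the calls over all genes were 956, against 79 with all libraries. The code term left only the lower code ranges compared here, 3 WT FLX with 3 WT vehicle mice. Over the settings the log2 difference lay between 0.63 and 0.69 for *Ddit4*, 0.57 and 0.71 for *Cdkn1a*, 0.76 and 1.04 for *Gjb6*, and 1.60 and 2.25 for *Plin4*, with an adjusted *p* up to 0.967 for each. Markers of other cells moved in the same libraries. Oligodendrocyte markers were higher in 6 of 6 (median log2 difference 1.21), astrocyte markers higher in 6 of 6 (0.33) and striatal projection neuron markers lower in 5 of 6 (−0.51), with 0 called in each list. The summed striatal markers ran from 111 to 1675 TPM with FLX and from 101 to 7290 TPM with vehicle, and none was at 0. The part of astrocyte and striatal markers in these differences was not tested.

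The other drug comparisons gave the following values for the same list. IMN against vehicle in WT mice gave 0 of 20 called and 5 higher at an unadjusted *p* under 0.05 (4.58% of all genes), with a list median of 0.20 against 0.00 for all genes. *Ddit4* ran from 74.7 to 145 TPM in the IMN libraries there (log2 difference 0.74 ± 0.14, limma adjusted *p* = 0.461). IMN and FLX in WT mice share the vehicle libraries. In *Brd1*+/- mice the median was 0.00 with IMN, with 1 of 20 at an unadjusted *p* under 0.05 (9.3% of all genes). With FLX it was 0.20, with 2 of 20, both higher (6.94%), and 0 were called with each drug (0.776% and 0.731%). *Plin4* differed from vehicle by −0.04 ± 0.38 with IMN and 0.58 ± 0.52 with FLX in *Brd1*+/- mice, and *Gjb6* by 0.07 ± 0.17 with FLX. FLX against IMN in WT mice gave 0 of 20 called and 3 higher at an unadjusted *p* under 0.05 (4.78% of all genes, list median 0.08), so the drugs were not shown to differ. None of the 21 was called for an interaction with genotype (0.536% of all genes for IMN and 1.71% for FLX). At an unadjusted *p* under 0.05 there were 3 for IMN (9.24% of all genes) and 7 for FLX (16.8%). With no call, the drug effects were not shown to differ between genotypes either. Across the 6 groups 2 of 21 were called (1.7% of all genes), *Ddit4* (limma *F* = 6.58, adjusted *p* = 0.0106) and *Sult1a1*, a sulfotransferase (*F* = 5.16, adjusted *p* = 0.0478). *Sult1a1* had group means of 15.4 and 16.8 TPM with vehicle, 18.6 and 19.1 TPM with IMN, and 23.3 and 23.9 TPM with FLX (WT and *Brd1*+/- in each pair). Its means were thus ordered by treatment, with little between the genotypes.

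**Figure D4:**
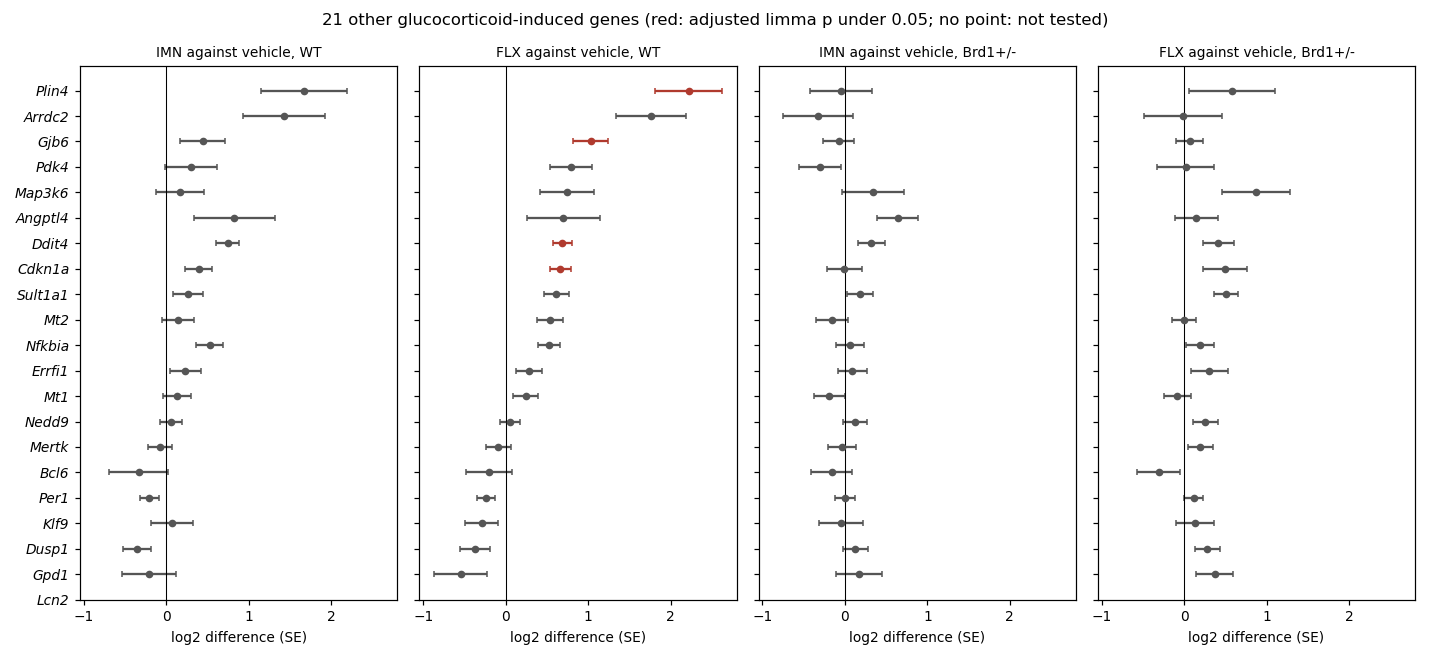
limma log2 difference with standard error (x axis) of the 21 other glucocorticoid-induced genes (y axis, ordered by FLX against vehicle in WT mice) in 4 comparisons of drug with vehicle; red points have an adjusted p under 0.05 and a gene without a point was not tested. Only FLX against vehicle in WT mice has red points, *Plin4*, *Gjb6*, *Ddit4* and *Cdkn1a*, and the same WT vehicle libraries enter the IMN panel.

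Local hormone activation was then considered. *Hsd11b1* (ENSMUSG00000016194, chromosome 1, 193221634 to 193264075, minus strand) encodes the reductase that turns inactive 11-dehydrocorticosterone back into corticosterone inside cells. WT vehicle libraries ran from 5.10 through 8.22 to 14.2 TPM and *Brd1*+/- vehicle libraries from 7.25 through 10.6 to 25.6 TPM. The mean was 58.1% higher in *Brd1*+/- vehicle mice (log2 difference 0.62 ± 0.24, exact permutation *p* = 0.0272, limma adjusted *p* = 0.461). The difference was 0.35 ± 0.25 with IMN and −0.02 ± 0.26 with FLX, and averaged 0.32 ± 0.15 over treatments (limma unadjusted *p* = 0.041, adjusted *p* = 0.525). WT FLX replicate 6, at 29.7 TPM, was the highest library of all. Of the other steroid enzymes, *Hsd11b2*, which inactivates the hormone, was listed at 0 in 39 of 48 libraries and reached at most 0.294 TPM. *H6pd*, which supplies the cofactor of *Hsd11b1*, averaged 4.50 ± 1.11 TPM and *Srd5a1*, a 5α-reductase, 10.2 ± 4.00 TPM over the 48 libraries. Neither of this pair was called in the 13 comparisons, and *Hsd11b2* was high enough to be tested in 2 of them and not called.

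The CRH genes formed the last group. *Crhr1* (ENSMUSG00000018634, chromosome 11, 104132855 to 104175523, plus strand) encodes the main receptor of corticotropin-releasing hormone. *Brd1*+/- vehicle libraries were narrow, from 12.99 through 15.4 to 19.1 TPM, and *Brd1*+/- FLX libraries ran from 5.396 through 11.7 to 16.4 TPM. Of the 8 FLX libraries 5 lay below every vehicle library. The mean was 26.6% lower with FLX (log2 difference −0.51 ± 0.19, exact permutation *p* = 0.00932, limma adjusted *p* = 0.481), and −0.56 ± 0.20 with the oligodendrocyte covariate. WT groups were wider, from 4.49 through 17.0 to 26.4 TPM with vehicle and from 7.37 through 19.8 to 34.3 TPM with FLX, and gave 0.30 ± 0.42. The interaction was −0.81 ± 0.48 (limma unadjusted *p* = 0.098), so the FLX effects were not shown to differ.

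*Crhbp* (ENSMUSG00000021680, chromosome 13, 95431371 to 95444924, minus strand) encodes the binding protein and was the most variable of the 9 genes. It ran from 0.409 to 60.9 TPM over the 48 libraries, both extremes being *Brd1*+/- FLX mice. Group medians were 25.95 TPM in WT vehicle, 6.51 TPM in *Brd1*+/- vehicle, 11.8 TPM in WT IMN, 20.3 TPM in *Brd1*+/- IMN, 10.3 TPM in WT FLX and 20.2 TPM in *Brd1*+/- FLX mice. The medians thus differed up to several-fold, yet within WT vehicle mice alone the libraries ran from 1.76 to 45.9 TPM. The genotype difference in vehicle mice was −1.19 ± 0.80 (limma unadjusted *p* = 0.159), and no comparison of *Crhbp* had an unadjusted *p* under 0.05. Markers of other cells and of the region moved with it. The striatal projection neuron markers had a Pearson *r* of −0.57 and a Spearman rho of −0.44 with *Crhbp* (permutation adjusted *p* = 0.00132 and 0.0169), and the amygdala markers 0.64 and 0.43 (0.00162 and 0.0196). Without the 2 farthest libraries these Pearson values were −0.48 and 0.45. Oligodendrocyte markers had −0.53 and −0.64 with it (0.00346 and 0.000405) and microglia markers −0.45 and −0.52 (0.00153 and 0.00171). The part of these markers in the *Crhbp* differences was not tested.

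The other CRH genes were given for their role and not by the naming rule. *Crh*, the peptide itself, had medians of 5.14 TPM in WT vehicle, 7.67 TPM in *Brd1*+/- vehicle, 9.35 TPM in WT IMN, 8.68 TPM in *Brd1*+/- IMN, 17.1 TPM in WT FLX and 9.24 TPM in *Brd1*+/- FLX mice. WT vehicle libraries were between 0 and 11.0 TPM and WT FLX libraries between 7.52 and 30.0 TPM, a log2 difference of 2.35 ± 0.76 on a scale that includes 1 library listed at 0 (limma unadjusted *p* = 0.00693, adjusted *p* = 0.142). *Crhr2*, the second receptor, averaged 5.65 ± 4.55 TPM, *Ucn3*, one of its ligands, was listed at 0 in 23 of 48 libraries and reached 59.7 TPM, and *Ucn* was listed at 0 in 44. *Ucn2* reached at most 0.902 TPM. None was called where it was tested. *Ucn3* was too low to be tested in FLX against vehicle and FLX against IMN in *Brd1*+/- mice, and *Ucn* in every comparison.

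Members were next compared with each other across mice, with group means removed so that only differences between mice of 1 group counted. Of 36 pairs 6 had an adjusted *p* under 0.05 for Pearson's *r*. *Nr3c2* and *Fkbp5* rose and fell together (Pearson *r* = 0.50, Spearman rho = 0.51, permutation adjusted *p* = 0.00216 and 0.00378), with *r* = 0.48 without the 2 farthest libraries, 0.32 in vehicle and 0.61 in drug-treated libraries. *Sgk1* and *Crhbp* were opposed (*r* = −0.60, rho = −0.70, permutation adjusted *p* = 0.00216 and 0.00036), with −0.55 without the 2 farthest libraries, −0.77 in vehicle and −0.52 in drug-treated libraries. *Sgk1* and *Tsc22d3* had *r* = 0.48 and rho = 0.43 (permutation adjusted *p* = 0.0249 and 0.0304), and *r* = 0.51 without the 2 farthest, but −0.13 in the 16 vehicle libraries and 0.62 in the 32 drug-treated libraries. The relation of this pair therefore did not hold among vehicle libraries. The other 3 pairs were *Tsc22d3* with *Zbtb16* (0.43), *Nr3c1* with *Crhr1* (0.38) and *Zbtb16* with *Hsd11b1* (0.38), each with a permutation adjusted *p* between 0.0249 and 0.0491. *Nr3c1* itself had a Pearson *r* of −0.04 with *Fkbp5*, 0.17 with *Sgk1*, 0.29 with *Tsc22d3* and 0.20 with *Zbtb16*, none of them past the threshold. By rank 3 more pairs passed, so for these the call depended on the measure. They were *Nr3c1* with *Tsc22d3* (Spearman rho = 0.43, permutation adjusted *p* = 0.0304), *Nr3c2* with *Tsc22d3* (*r* = −0.27, rho = −0.45, permutation adjusted *p* = 0.147 and 0.0138) and *Sgk1* with *Hsd11b1* (*r* = 0.32, rho = 0.42, permutation adjusted *p* = 0.113 and 0.0197).

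**Figure D5:**
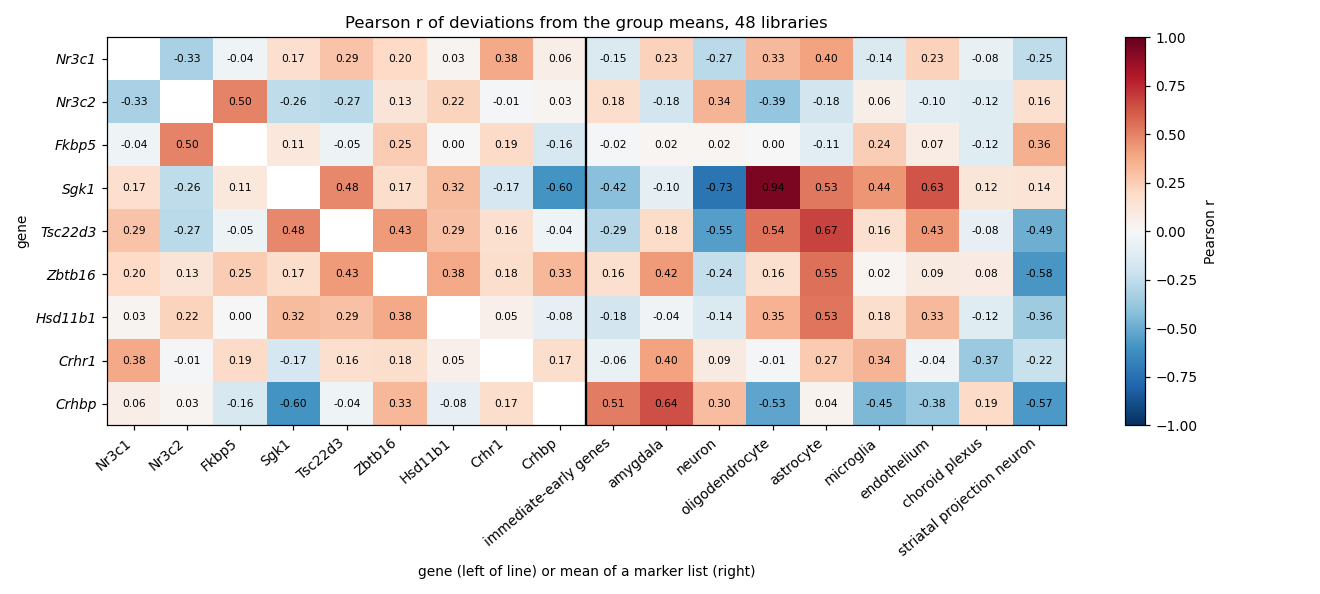
Pearson r of the deviations from the group means over 48 libraries, between the 9 genes (left of the line) and between each gene and the mean of a marker list (right of the line), red for positive and blue for negative on a scale from −1 to 1. The darkest cells are *Sgk1* with the oligodendrocyte list (0.94) and with the neuron list (−0.73).

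The members also followed cell types differently. Of 81 pairs of a member and a list, 30 had an adjusted *p* under 0.05 for Pearson's *r*. *Sgk1* went against neuron markers (*r* = −0.73, rho = −0.64, permutation adjusted *p* = 0.00027 and 0.000405). It also went with endothelium markers (*r* = 0.63, rho = 0.62, permutation adjusted *p* = 0.00081 and 0.000911). *Tsc22d3* went with astrocyte markers (*r* = 0.67, rho = 0.76, permutation adjusted *p* = 0.00027 and 0.000405), at 0.69 in vehicle and 0.69 in drug-treated libraries and 0.74 without the 2 farthest. *Zbtb16* went with astrocyte markers (*r* = 0.55, rho = 0.54, permutation adjusted *p* = 0.000648 and 0.00182) and against striatal markers (*r* = −0.58, rho = −0.58, permutation adjusted *p* = 0.000648 and 0.00081), and *Hsd11b1* with astrocyte markers (*r* = 0.53, rho = 0.49, permutation adjusted *p* = 0.00081 and 0.00393). The largest values were smaller for *Fkbp5* (0.36, striatal), *Nr3c2* (−0.39, oligodendrocyte), *Nr3c1* (0.40, astrocyte) and *Crhr1* (0.40, amygdala). All these values share library composition, since TPM is a share of each library.

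Over 19222 genes with a mean of at least 1 TPM, the genes most like each member across the 48 libraries were named by the Pearson *r* of the same deviations, as a description. For *Sgk1* they were *Mal*, *Myrf*, *Carhsp1*, *Sept4* and *Tmem88b*, with *r* from 0.95 to 0.96. *Mal* encodes a myelin protein and *Myrf* the regulator of myelin genes. For *Tsc22d3* they were *Phka1*, *Cd38*, *Paqr8*, *Selenop* and *F3*, from 0.79 to 0.82. For *Fkbp5* they were *Ncdn* at 0.82, *Btg3*, *Gm7334*, *Klf5* and *Mertk*, the last at 0.72, and for *Nr3c1* they were *Amotl1* at 0.73, *Synrg*, *Xpr1*, *Il13ra1* and *Prkacb*, the last at 0.66. *Mertk* is also on the list of other glucocorticoid-induced genes.

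Immediate-early genes, which mark recent neuronal activity, were set beside the hormone genes in the same libraries. This list too was chosen with earlier results of these data known. With FLX in WT mice 2 of the 7 tested were called, both lower (0.335% of all genes). *Egr1* fell by 1.15 (log2, SE 0.21, adjusted *p* = 0.0287 by limma), from a median of 120 to 51.2 TPM, and *Npas4* fell by 0.95 (SE 0.19, adjusted *p* = 0.0429), from 13.3 to 7.68 TPM. Of the 7 genes 6 had an unadjusted *p* under 0.05 (16.8% of all genes), all lower, beside 10 higher and 1 lower among the 20 glucocorticoid-induced genes in the same libraries. Both calls were lost without a trended prior, in 1 fit of all libraries, with the replicate block, with the sample code term and with the oligodendrocyte covariate. As above, the code term compared only 3 WT FLX with 3 WT vehicle mice. Over the settings *Egr1* lay between −1.20 and −0.78 and *Npas4* between −1.12 and −0.64 (adjusted *p* up to 0.967). With a library left out *Egr1* was called in 6 of 16 fits and *Npas4* in 4 of 16.

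The pattern was not met with FLX alone. IMN against vehicle in WT mice had 6 of 8 lower at an unadjusted *p* under 0.05 (4.58% of all genes, list median −1.05), and *Brd1*+/- against WT vehicle mice 6 of 8 lower (8.52%, list median −0.91), with 0 called in each. These comparisons and that of FLX share the WT vehicle libraries. Of all genes 9.24% had an unadjusted *p* under 0.05 for the interaction of IMN with genotype, and 16.8% for that of FLX. The interaction of IMN with genotype had 5 of 8 higher (median 1.00) and 0 called. The interaction of FLX with genotype had 7 of 8 higher (median 1.56), and called 3 of 8 (1.71% of all genes), *Egr2* (2.49 ± 0.66, adjusted *p* = 0.0426), *Npas4* (1.62 ± 0.39, adjusted *p* = 0.0263) and *Nr4a1* (95% interval 0.69 to 2.31, adjusted *p* = 0.0459), while 0 of the 9 hormone genes were called in that test. These calls too depended on the setting, that of *Npas4* the least. *Npas4* was called in 10 of 11 other settings and in 30 of 32 fits with a library left out. For *Egr2* these were 6 of 11 and 14 of 32, and for *Nr4a1* 5 of 11 and 11 of 32. The count of the 8 genes called was 0 with the oligodendrocyte covariate, 1 with the sample code term and without a filter, and 0 to 6 with a library left out, 6 being without *Brd1*+/- FLX replicate 4 and 0 without *Brd1*+/- vehicle replicate 2 or 7. Across the 6 groups *Npas4* was called (limma *F* = 5.16, adjusted *p* = 0.0478), and was so in 4 of 10 other settings. *Arc* (limma *F* = 3.79, adjusted *p* = 0.167) and *Junb* (*F* = 4.51, adjusted *p* = 0.0879), named for an unadjusted *p* under 0.01 across the 6 groups, were not called, and *Junb* was listed at 0 in 23 of 48 libraries, all 8 WT FLX libraries among them. Across mice the mean log2(TPM + 0.1) of the 8 immediate-early genes went with *Crhbp* (*r* = 0.51, rho = 0.56, permutation adjusted *p* = 0.00772 and 0.00182) and against *Sgk1* (*r* = −0.42, rho = −0.48, permutation adjusted *p* = 0.0235 and 0.00713), the latter at −0.11 in vehicle and −0.59 in drug-treated libraries. That mean includes *Junb* with its libraries at 0, and the part of *Junb* in these values was not tested.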

How the data were processed

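RNA sequencing values of right amygdala punches from 48 female mice were used. Per the labels and the study's methods, the authors trimmed and checked reads (FastQC, Trimmomatic), aligned single-end reads to GRCm38 with HISAT2 2.1.0, quantified genes with StringTie 1.3.4 and tested counts with edgeR. The values the authors deposited are TPM, in which each gene's reads are scaled by its length and each library to the same sum (999524 to 999772 TPM here), so depth is unknown, a rise in abundant transcripts lowers the share of all others, and library composition enters every value. Whether counting used the strand is not given in the sources used here. The series' design text names other brain regions and another sequencer, and the sample labels, which say amygdala, were followed.

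Groups and replicate numbers were taken from the sample labels. GENCODE M21 (GRCm38) supplied symbols and positions (52489 of 52636 IDs matched), promoter windows from RefSeq on GRCm38.p6. Values were transformed to log2(TPM + 0.1), a scale on which the change of low genes is understated. Genes reaching 0.1 TPM in 8 or more libraries of a fit were tested with limma 3.58.1 (R 4.3.3, eBayes with a trended prior) on the groups compared, with Benjamini-Hochberg adjustment over all genes tested and adjusted p-values under 0.05 called. Single values were also compared by two-sided exact permutation tests over 12870 arrangements, of which the smallest possible p is 0.000155. These 81 exact tests of members and groups are unadjusted. Correlations used 100000 permutations within groups. P-values measure the spread between mice. The code was tested on simulated data, where false calls made up a larger share than the adjusted threshold allows, so calls just past it are less certain than their adjusted p-values.

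The members and lists were chosen with earlier results of these data known. Named genes were the 9 members, *Brd1*, genes of the pathway lists called in a comparison or with an unadjusted p under 0.01 across the 6 groups, and the 5 genes most like each of *Fkbp5*, *Sgk1*, *Tsc22d3* and *Nr3c1*. Alternative settings changed the pseudocount (0.01 or 1), the filter (none, or 1 TPM in 8 libraries), the scaling (median-ratio or quantile) or the prior (untrended). Others fitted all libraries at once, added the replicate number as a block or the range of the sample code as a term (vehicle codes 121 to 127 or 130 to 155, drug codes 351 to 394 or 402 to 445), or left out each library. The code term was separate for vehicle and drug-treated libraries. For a drug against vehicle in 1 genotype it therefore compared only the lower ranges, in WT mice 3 FLX with 3 vehicle libraries. The oligodendrocyte covariate, and the settings for immediate-early genes, were added after the data had been seen. The marker lists of microglia (5 genes), endothelium (5 genes) and the other cell types entered the correlations.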

Additional observations from a re-analysis of the deposited data

Results flagged for a closer look

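In 5 of the 54 sets of 8 libraries (9 genes in 6 groups) the highest library lay far from the nearest of the others for the range of its group, by Dixon's criterion, which chance meets in about 1 of 20 sets. *Sgk1* was at 323 TPM in WT vehicle replicate 1, where the next library was at 103 TPM, and the gap was 0.784 of the range. That library also held the highest choroid plexus sum, 29502 TPM, and the highest oligodendrocyte sum of its group, 10381 TPM. *Hsd11b1* was at 29.7 TPM in WT FLX replicate 6, next 13.5 TPM, and at 14.2 TPM in WT vehicle replicate 5, next 9.23 TPM. *Fkbp5* was at 67.8 TPM in WT IMN replicate 5, next 47.3 TPM. *Crhbp* was at 26.6 TPM in WT IMN replicate 1, next 13.8 TPM. All 5 were high values and all were in WT groups.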

How the results depend on the processing

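The replicate numbers did not pair the libraries (120 same-numbered pairs, *r* from −0.292 to 0.519, median −0.0243, 25 over 0.1), and under the replicate block 0 members were called in each of the 13 comparisons. Of 16 member differences with an unadjusted *p* under 0.05, recomputed in 174 fits under other settings, 171 kept direction and side of the threshold, 2 were newly called and 1 reversed. That one was *Sgk1* for FLX by genotype, 0.0727 with the oligodendrocyte covariate. None of the 16 was called as reported, so for the 171 keeping the side meant only staying uncalled, whatever the size. Among them was *Sgk1* for genotype with vehicle, 1.11 as reported and 0.23 with the covariate. Members called for FLX against vehicle in WT mice were 1 with the 1 TPM filter and 1 with quantile normalization, and for any difference among 6 groups 1 with the covariate. Over all genes these 2 tests called 0 to 128 and 68 to 573 under the settings, against 79 and 476 as reported. With 1 library left out the members called were 0 to 2 for FLX against vehicle in WT mice and 0 to 1 for genotype with vehicle, and 0 elsewhere. They were 2 and 1 without WT vehicle replicate 1, where 956 and 349 of all genes were called.

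Other glucocorticoid-induced genes called for FLX against vehicle in WT mice, 4 as reported, were 2 without a filter, 2 with median-ratio scaling, 1 with eBayes without a trend, and 0 in 1 fit of all libraries, with the replicate block, with the sample code term and with the covariate. Leaving out 1 library gave 0 (WT vehicle 2 or 8, WT FLX 2, 4 or 7) to 9. For any difference among 6 groups, 2 as reported, they were 1 with a pseudocount of 0.01, with the 1 TPM filter and without a trend, 0 with the code term, 5 with the covariate and 1 to 3 with a library left out. Leave-one-out counts were 0 to 1 for genotype with vehicle, genotype with FLX and FLX by genotype. The 4 log2 differences kept their sign in 44 fits under other settings and 64 with a library left out, and lost the call in 25 and 41 of these.

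Pairs of members called, 6 as reported, were 3 with median-ratio scaling, 1 in vehicle and 3 in drug-treated libraries, and pairs of a member and a list, 30 as reported, 4 in vehicle and 19 in drug-treated libraries, on fewer libraries. In vehicle libraries *r* reversed to −0.13 for *Sgk1* and *Tsc22d3*, 0.0153 for *Tsc22d3* and neuron markers and −0.14 for *Tsc22d3* and endothelium markers. The cause of these changes was not tested. Counts over all genes for FLX against vehicle in WT mice, 79 with all libraries, were 1 (without WT FLX replicate 7) to 956 (without WT vehicle replicate 1). Depth is unknown from TPM and sets no stated limit.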
